A study of Mus musculus with 4 samples.

Results

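The genes described here are 9 transcription factors of the macrophage lineage, Nr1h3, Rxra, Spi1, Spic, Id3, Maf, Zeb2, Cebpb and Irf8. They were taken by symbol from the 27998 genes listed in each count matrix, all 9 symbols were found, and all 9 had UMIs in every library. The libraries are single-cell RNA sequencing libraries of CD45+ leukocytes from the livers of adult wild-type C57BL/6 mice. The exercise group (2 libraries) ran on a motorized treadmill at 12.5 m/min, and the sedentary group (2 libraries) was placed on a treadmill that stood still, both for 60 min a day on 5 days a week over 4 weeks. All mice were wild type and no other agent is named in the labels. Serum alanine aminotransferase (sALT), a blood marker of liver damage, stood at 26 U/L (replicate 1) and 59 U/L (replicate 2) for the exercise libraries, and at 33 U/L (replicate 1) and 56 U/L (replicate 2) for the sedentary libraries. No label states that replicates came from separate animals, and each p then measures only how far these libraries spread, which may be technical.

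Kupffer cells are macrophages that live in the liver sinusoids, where they clear bacteria, worn red cells and lipoproteins from the blood. Work in mice has shown that their identity is kept by a small set of transcription factors: general myeloid factors such as PU.1 (Spi1) and C/EBPβ (Cebpb) open enhancers in many myeloid cells, while LXRα (Nr1h3), SPIC, ID3 and ZEB2 act on the liver-resident programme. LXRα binds DNA as a heterodimer with RXRα (Rxra) and answers to oxysterols, and IRF8 is best known as the factor that sets up plasmacytoid and type 1 conventional dendritic cells.

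On the mouse genome GRCm38, in the GENCODE M21 annotation, 5 of the 9 genes lie on chromosome 2. Spi1 (ENSMUSG00000002111, chr2:91082390-91115756, plus strand) and Nr1h3 (ENSMUSG00000002108, chr2:91184061-91202834, minus strand) are 68304 bases apart, with 2 protein-coding genes between them. Rxra (ENSMUSG00000015846, chr2:27676440-27762957, plus strand), Zeb2 (ENSMUSG00000026872, chr2:44983632-45117395, minus strand) and Cebpb (ENSMUSG00000056501, chr2:167688915-167690418, plus strand) are on the same chromosome. Maf (ENSMUSG00000055435, chr8:115682942-115707794, minus strand) and Irf8 (ENSMUSG00000041515, chr8:120736358-120756694, plus strand) are on chromosome 8, Id3 (ENSMUSG00000007872, chr4:136143497-136145755, plus strand) is on chromosome 4 and Spic (ENSMUSG00000004359, chr10:88674772-88685015, minus strand) is on chromosome 10. Counting was done against a pre-mRNA reference per the series text and no source used here says whether it used strand, so reads of Zeb2 and its antisense gene Zeb2os, of Maf and the antisense gene Gm15655, of Cebpb and Tmem189, and of Irf8 and the overlapping same-strand gene Gm20388 may not be fully separated.

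Promoters, from 250 bases before to 50 bases after a gene's start, were matched by symbol for 7 of the 9 genes in the RefSeq table (GRCm38.p6); Maf and Spi1 were not matched. The promoters of Nr1h3 and Spic are shown because both genes had their highest mean level in Kupffer-like cells among the classes compared below. The Irf8 promoter is shown as that of the dendritic cell gene of the set. That of Id3 is shown because a test called a difference in its exercise change between macrophage classes. With coarser clusters that call was not made. Where the table has more than 1 start for a gene, the entry listed first is shown. Capitals mark each match, on either strand, to 4 letter strings: the core of the PU.1 site (GAGGAA), the TATA box (TATAAA), the E-box bound by ZEB proteins (CACCTG) and the core repeat unit bound by LXR and RXR (AGGTCA).
Nr1h3 promoter (chr2:91195067-91195366, minus strand): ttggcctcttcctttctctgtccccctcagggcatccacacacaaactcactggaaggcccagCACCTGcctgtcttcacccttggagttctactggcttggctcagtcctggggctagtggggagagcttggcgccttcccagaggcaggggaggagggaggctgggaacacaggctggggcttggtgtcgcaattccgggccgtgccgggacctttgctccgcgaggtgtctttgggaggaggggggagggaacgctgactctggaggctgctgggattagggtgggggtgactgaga
Spic promoter (chr10:88682974-88683273, minus strand): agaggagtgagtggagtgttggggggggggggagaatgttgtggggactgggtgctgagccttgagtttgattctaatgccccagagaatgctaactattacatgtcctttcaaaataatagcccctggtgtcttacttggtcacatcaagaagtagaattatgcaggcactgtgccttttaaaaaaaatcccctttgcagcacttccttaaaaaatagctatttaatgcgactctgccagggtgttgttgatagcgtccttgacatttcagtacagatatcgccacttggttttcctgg
Id3 promoter (chr4:136143572-136143871, plus strand): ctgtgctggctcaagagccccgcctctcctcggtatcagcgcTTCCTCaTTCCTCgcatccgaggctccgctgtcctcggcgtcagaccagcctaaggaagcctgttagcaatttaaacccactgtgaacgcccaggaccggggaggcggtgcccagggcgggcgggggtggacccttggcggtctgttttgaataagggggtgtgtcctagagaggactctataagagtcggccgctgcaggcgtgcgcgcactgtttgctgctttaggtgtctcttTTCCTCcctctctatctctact
Irf8 promoter (chr8:120736108-120736407, plus strand): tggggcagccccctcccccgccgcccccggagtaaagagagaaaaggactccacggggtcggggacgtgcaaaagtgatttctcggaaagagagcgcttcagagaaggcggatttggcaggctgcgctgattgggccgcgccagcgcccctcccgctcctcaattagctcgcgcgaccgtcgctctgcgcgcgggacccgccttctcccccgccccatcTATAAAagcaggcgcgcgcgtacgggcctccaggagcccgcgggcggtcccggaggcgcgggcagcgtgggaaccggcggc
The Id3 window holds the PU.1 core 3 times on the opposite strand, starting at bases 43, 50 and 279 of the window, the Nr1h3 window holds the ZEB-type E-box at base 64, the Irf8 window holds the TATA box at base 220, and the Spic window holds none of the 4 strings. Of all 32851 promoters in the table, 28.3% hold GAGGAA, 13.6% TATAAA, 20.2% CACCTG and 16.3% AGGTCA on either strand. The matches describe letters in these windows only.

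The 4 matrices held 15383 barcodes. After filtering and removal of doublets, 2849 and 4078 cells were kept in exercise replicates 1 and 2 and 3896 and 3737 cells in sedentary replicates 1 and 2, with library totals of 10050976 to 14849778 UMIs and median depths of 2030.0 to 2853.5 UMIs a cell. Pairs of libraries shared 11 to 31 cell barcodes. Cells were clustered without the 9 genes and classes were named "like" a cell type from marker lists; all 12 Kupffer markers, among them Clec4f, Vsig4, Timd4 and C1qa, were detected in at least 10% of the 6039 Kupffer-like cells. Other macrophage-like cells (302 cells) carried 9 of 10 macrophage markers, with Cx3cr1 leading, and lacked Gpnmb. A class of 835 endothelial (LSEC)-like cells, sinusoidal lining cells that are not leukocytes, was present after CD45 selection. Sedentary libraries carried more hepatocyte RNA: the 9 hepatocyte markers summed to 0.508 and 0.383 UMIs a cell in exercise and 3.73 and 2.21 in sedentary Kupffer-like cells. The 6 erythroid markers gave 0.308 and 0.973 UMIs a cell in exercise and 6.35 and 2.52 in sedentary Kupffer-like cells, and reached 1.16 in exercise cycling Kupffer-like cells and 131 in the cDC1-like cells of sedentary replicate 1.

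Levels were compared over the 12 classes that held 20 or more cells per library, as CPM (UMIs of the gene per 1e6 UMIs, after summing the cells of a class in a library). The level of 1 gene was compared between classes, never between genes, and with 4 libraries a class these values are a description. When cells were thinned to 1000 UMIs each, a Kupffer-like cell carried UMIs of 3.08 to 3.28 of the 9 genes on average in the 4 libraries and a cycling Kupffer-like cell of 2.84 to 3.17. Other macrophage-like cells followed with 2.19 to 2.77, classical monocyte-like cells had 2.0 to 2.09, and Cxcr6 T-like and Tcf7 T-like cells had 0.256 to 0.441 and 0.197 to 0.322.

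**Figure D1:**
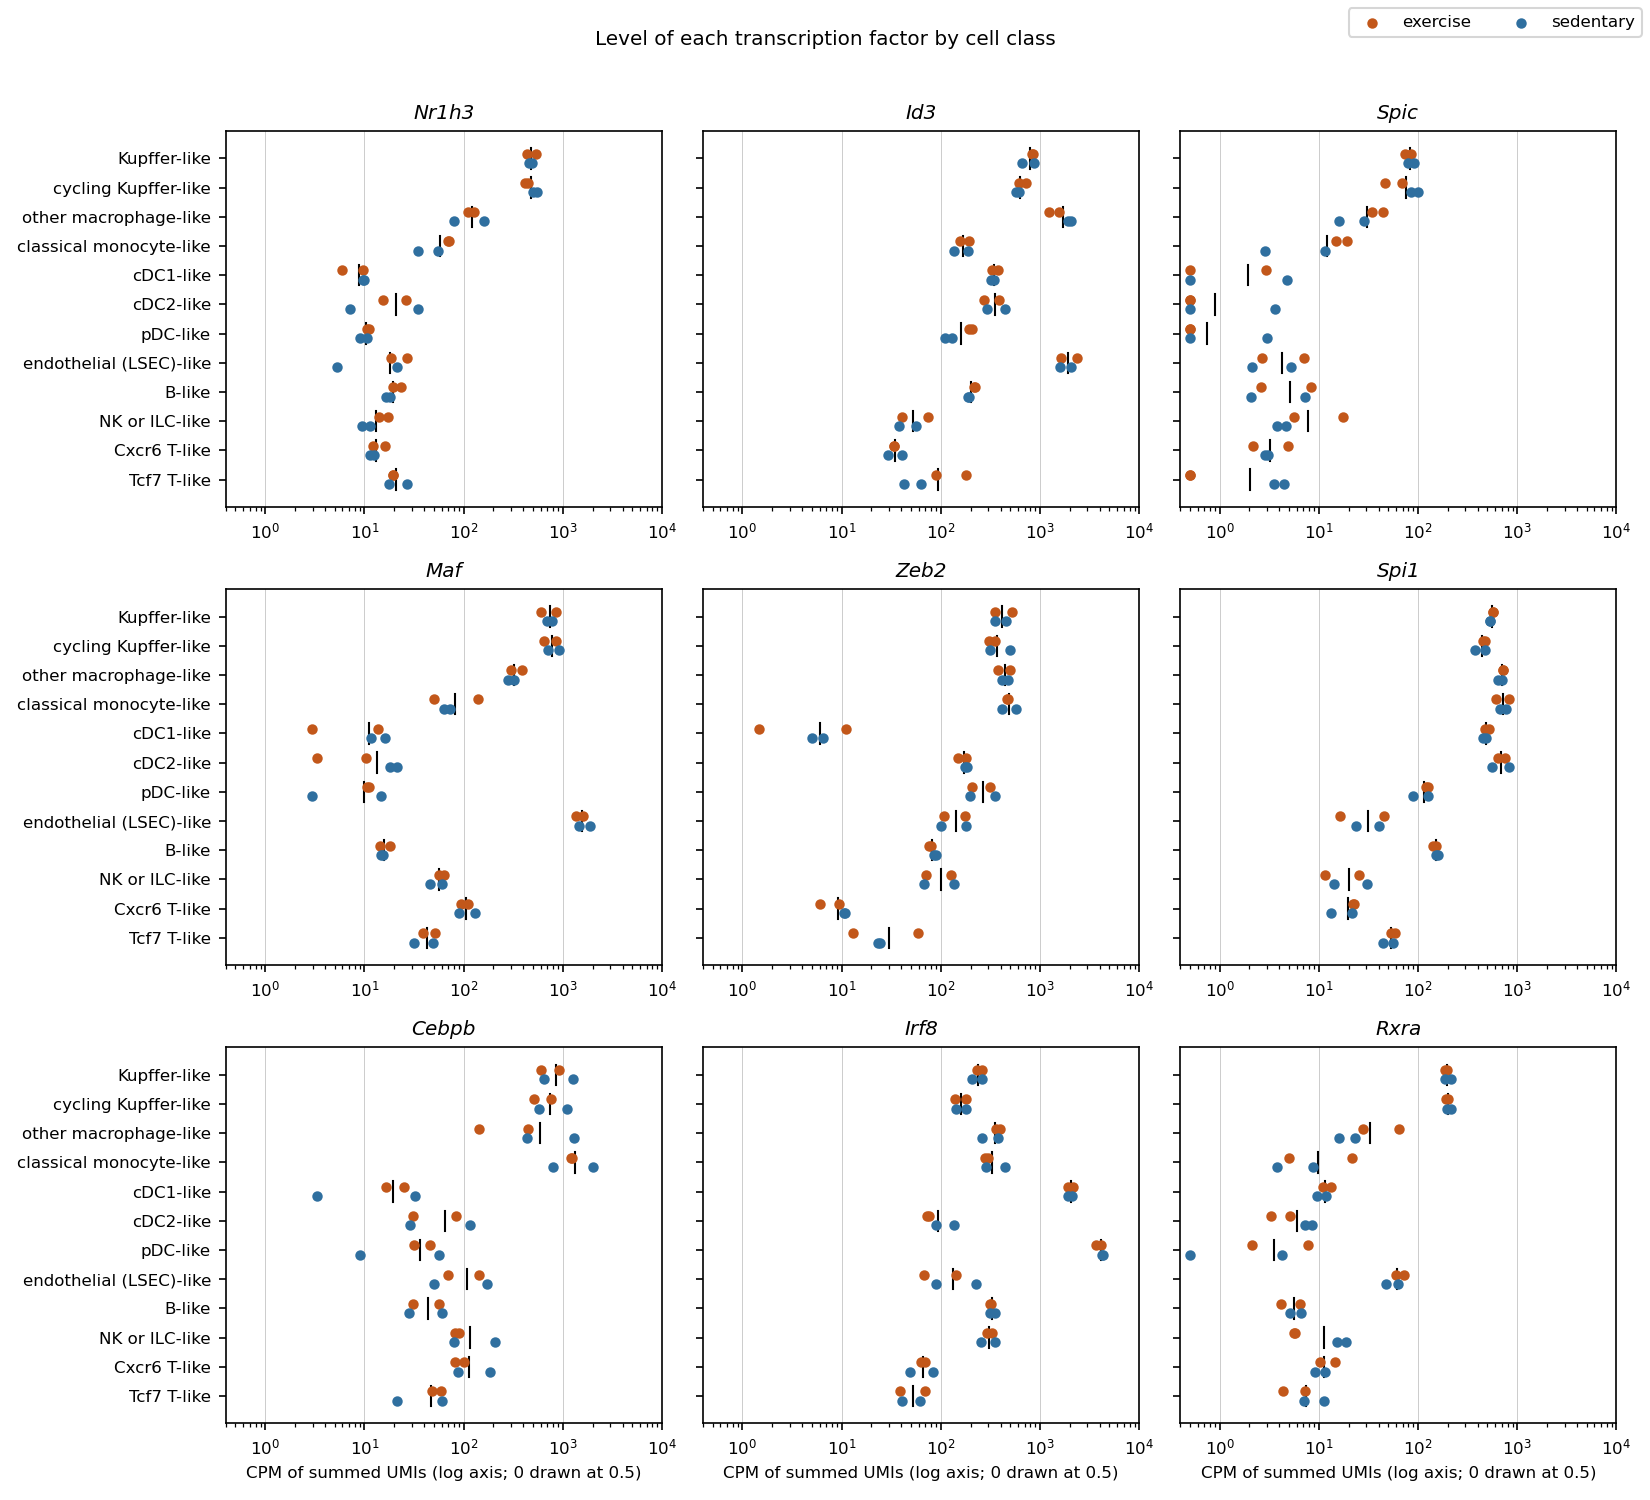
CPM of summed UMIs (log axis) of each of the 9 genes in 12 cell classes, 1 point a library (exercise above sedentary within a class), with a black bar at the mean of the 4 libraries. Nr1h3, Spic and Rxra were highest in Kupffer-like and cycling Kupffer-like cells, Id3 and Maf in endothelial (LSEC)-like cells, Zeb2, Spi1 and Cebpb in classical monocyte-like cells, and Irf8 in pDC-like cells.

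The LXR and RXR receptor pair was most abundant in Kupffer-like cells. Nr1h3 had 533 and 439 CPM in exercise and 489.7 and 460.1 CPM in sedentary Kupffer-like cells, with a mean of 480.4 ± 40.7 (SD, n = 4). Cycling Kupffer-like cells, a class led by S-phase and mitosis genes, had the same level within the spread (479 ± 57.8). Other macrophage-like cells had 120.2 ± 33.7 CPM and classical monocyte-like cells 57.6 ± 16.98, and the ranges of these 4 classes did not overlap except between the cycling and non-cycling Kupffer-like cells. In the other 8 classes the mean lay between 8.81 CPM in cDC1-like and 20.9 in Tcf7 T-like cells. Stellate-like cells, 34 in all and too few for a test, averaged 137 ± 35.4 CPM from 16 UMIs. At 1000 UMIs a cell, 38.4% of Kupffer-like cells had an Nr1h3 UMI (67.0% before thinning, at a median of 2448 UMIs), against 1.35% of Cxcr6 T-like cells (3.71% before thinning, at a median of 2720 UMIs), a class in which such UMIs can come from free RNA. The order for Rxra was alike at its upper end but not below it. Rxra had 188 and 197 CPM in exercise and 215 and 185 CPM in sedentary Kupffer-like cells. Cycling Kupffer-like cells had 200.2 ± 10.998 CPM, while endothelial (LSEC)-like cells had 60.9 ± 10.6 and other macrophage-like cells 32.8 ± 21.5, which overlapped. The other 8 of the 12 classes had means of 11.4 CPM or less.

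Of the ETS factors, Spi1, which encodes PU.1, was present across the myeloid classes: classical monocyte-like cells had 720.2 ± 92.2 CPM, other macrophage-like cells 697 ± 34.7, cDC2-like cells 691 ± 121, Kupffer-like cells 555 ± 21.9, cDC1-like cells 482 ± 28.4 and cycling Kupffer-like cells 444 ± 46.5. Neighbours in this order overlapped, except that every Kupffer-like library lay above every cDC1-like library. Among classes with too few cells for a test, neutrophil-like cells averaged 1240 ± 406 CPM, patrolling monocyte-like cells 972 ± 168 and migratory DC-like cells 581 ± 110. B-like cells had 151 ± 7.40 CPM, pDC-like cells 115 ± 17.9, and NK or ILC-like and Cxcr6 T-like cells 20.3 ± 8.96 and 19.9 ± 4.34. Spic, a PU.1 relative that heme induces and that iron-recycling macrophages of the mouse spleen need, was narrow over the 12 classes. Spic had 73.9 and 85.9 CPM in exercise and 79.98 and 91.3 CPM in sedentary Kupffer-like cells, from 1495 UMIs in all. Cycling Kupffer-like cells had 75.3 ± 22.8 CPM and other macrophage-like cells 30.9 ± 11.7. The remaining 9 classes had means of 12.1 CPM or less, and pDC-like and cDC2-like cells had 1 UMI each over the 4 libraries together. Stellate-like cells, too few for a test, averaged 35.5 ± 23.9 CPM from 4 UMIs. At 1000 UMIs a cell, 8.28% of Kupffer-like cells had a Spic UMI (19.6% before thinning), against 0.593% of Cxcr6 T-like cells (0.968% before thinning).

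Id3, an inhibitor that binds E proteins and keeps them off DNA, was not highest in Kupffer-like cells. Endothelial (LSEC)-like cells had 1899 ± 375 CPM and other macrophage-like cells 1695 ± 380.2. Kupffer-like cells had 853 and 824 CPM in exercise and 653 and 863 CPM in sedentary libraries, all below the lowest other macrophage-like library (1229 CPM). Cycling Kupffer-like cells (634 ± 60.1 CPM) overlapped Kupffer-like cells, and cDC2-like and cDC1-like cells had 349 ± 80.8 and 342 ± 24.2. The lymphoid classes ran from B-like cells at 204 ± 17.004 CPM to Cxcr6 T-like cells at 34.3 ± 4.62. Maf, a basic leucine zipper factor of macrophages and some T cells, had its highest level in endothelial (LSEC)-like cells as well, at 1569 ± 215 CPM. Maf had 862 and 607 CPM in exercise and 787 and 692 CPM in sedentary Kupffer-like cells, and 787 ± 122 CPM in cycling Kupffer-like cells, which overlapped. Other macrophage-like cells had 323 ± 45.6 CPM, below every Kupffer-like library. Among lymphoid cells, Cxcr6 T-like cells had 106 ± 18.7 CPM of Maf, against 42.9 ± 9.10 in Tcf7 T-like and 15.6 ± 1.74 in B-like cells. The dendritic classes had means of 9.84 to 13.3 CPM. For both Id3 and Maf, every endothelial (LSEC)-like library lay above every Kupffer-like library.

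Zeb2, a zinc finger repressor that keeps tissue macrophages in their resident state in mice, had overlapping levels over the monocyte and macrophage classes. Classical monocyte-like cells had 483 ± 68.9 CPM, other macrophage-like cells 443 ± 58.3, Kupffer-like cells 418 ± 80.4 and cycling Kupffer-like cells 366 ± 87.2, and each range overlapped the next. Patrolling monocyte-like and neutrophil-like cells, with too few cells for a test, averaged 622 ± 223 and 87.3 ± 66.2 CPM. The dendritic classes were split: pDC-like cells had 267 ± 74.8 CPM and cDC2-like cells 172 ± 15.7, while cDC1-like cells had 5.99 ± 3.96 from 16 UMIs, the lowest mean of the 12 classes. Irf8, like Zeb2, was highest among the dendritic classes in pDC-like cells, but its order between cDC1-like and cDC2-like cells was the opposite. Irf8 reached 4089.5 ± 301 CPM in pDC-like and 2032 ± 129.7 CPM in cDC1-like cells, and these ranges did not overlap each other or any other class. cDC2-like cells had 93.8 ± 29.9 CPM. Kupffer-like cells had 239.8 ± 24.7 CPM, a level that overlapped NK or ILC-like cells (306 ± 43.3), whereas cycling Kupffer-like cells (160.4 ± 21.6) lay below every Kupffer-like library.

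Cebpb, a basic leucine zipper factor of inflammatory and metabolic gene programmes in myeloid cells, had a wide spread between libraries in the myeloid classes. Classical monocyte-like cells had 1237 and 1218 CPM in exercise and 805 and 2024 CPM in sedentary libraries. Kupffer-like cells had 605 and 908 CPM in exercise and 643 and 1253 CPM in sedentary libraries. Other macrophage-like cells had 144 and 449 CPM in exercise and 439 and 1310.0 CPM in sedentary libraries, a range that overlapped both Kupffer-like classes as well as NK or ILC-like and Cxcr6 T-like cells. Lymphoid, endothelial and dendritic classes had means of 115 CPM or less, and cDC1-like cells were again lowest at 19.3 ± 12.4. Patrolling monocyte-like and neutrophil-like cells, which had too few cells for a test, averaged 2910.5 and 2300.3 CPM.

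Likeness of patterns was measured as Pearson's r of log2(CPM + 1) over the 12 class means, among 8656 genes that reached 20 CPM in some class. The 12 points share libraries, and the values are a description. The genes most like Nr1h3 were Wfdc17 (r = 0.99), Adamdec1 (r = 0.99) and Plekhm2 (r = 0.99), all highest in Kupffer-like cells. Those most like Rxra were Pde8a (r = 0.98), Pmp22 (r = 0.98) and the cholesterol exporter gene Abcg1 (r = 0.97). Genes with a pattern like that of Spi1 included Ebi3 (r = 0.96) and Ifi30 (r = 0.96), and Spic was most like RP24-330M21.1 (r = 0.98), Igf1 (r = 0.97) and BC049352 (r = 0.97). Id3 was most like the Fc receptor gene Fcgrt (r = 0.96), Tle1 (r = 0.95) and Smagp (r = 0.93), and Maf was most like the integrin gene Itga9 (r = 0.95), Hs1bp3 (r = 0.95) and Zswim6 (r = 0.95). Zeb2 was most like Amdhd2 (r = 0.92), its own antisense gene Zeb2os (r = 0.89), whose reads may be shared with it, and Fam21 (r = 0.88). Cebpb was most like Vmp1 (r = 0.96), Gm5150 (r = 0.94) and Rap2b (r = 0.93), and Irf8 was least closely matched, by P2ry14 (r = 0.87), Kdm4a (r = 0.85) and Manf (r = 0.83). Between the members themselves, Nr1h3 and Spic had the highest r (0.93), followed by Maf and Rxra (0.89), while Irf8 had a negative r with Nr1h3, Spic, Maf, Cebpb and Rxra (-0.42 to -0.15).

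The Kupffer-like class was made of 3 clusters, in which the members did not keep one ratio. Cluster 0 (2952 cells, median mitochondrial share 9.47%, median 1977 UMIs a cell) was led by genes such as Hmox1, Marco and Vcam1, cluster 1 (2371 cells, 5.40%, 4149 UMIs) by Cd207, Clec4f and C1qb, and cluster 5 (716 cells, 3.86%, 1397.5 UMIs) by Cxcl13, C1qb and Apoe. Zeb2 had 65.6 and 72.0 CPM in exercise and 112 and 93.0 CPM in sedentary cells of cluster 5, against 396 ± 58.3 CPM over the 4 libraries of cluster 1 and 511 ± 127 in cluster 0. Maf had 209 and 226 CPM in exercise and 227 and 192 CPM in sedentary cells of cluster 5, against 660.3 ± 87.3 in cluster 1 and 954 ± 169.7 in cluster 0. Rxra likewise averaged 90.0 ± 19.8 CPM in cluster 5, 191 ± 13.1 in cluster 1 and 224 ± 18.8 in cluster 0. Spi1 did not follow: it averaged 579 ± 25.01 CPM in cluster 5, 595 ± 19.3 in cluster 1 and 489 ± 22.6 in cluster 0. Nr1h3 averaged 333 ± 67.2, 433 ± 28.05 and 585 ± 56.9 CPM in clusters 5, 1 and 0. In the same order Id3 averaged 539 ± 156, 865 ± 101 and 747 ± 78.5 CPM. Cebpb averaged 440 ± 106, 804 ± 302 and 1012 ± 364, and Irf8 155 ± 13.6, 237 ± 34.4 and 257 ± 15.7 CPM. These members too were lowest in cluster 5 in every library. Spic averaged 58.4 ± 22.2, 79.8 ± 13.4 and 92.0 ± 1.56 CPM, but was not lowest in cluster 5 in exercise replicate 2. The clusters were built from other genes of the same cells, so these differences are described without a test, and depth and mitochondrial share differed with them. Cluster 5 held 101 and 158 of 1271 and 1826 Kupffer-like cells in exercise, and 235 and 222 of 1475 and 1467 in sedentary libraries. Its part in the exercise comparison below, which sums all 3 clusters, was not tested.

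**Figure D2:**
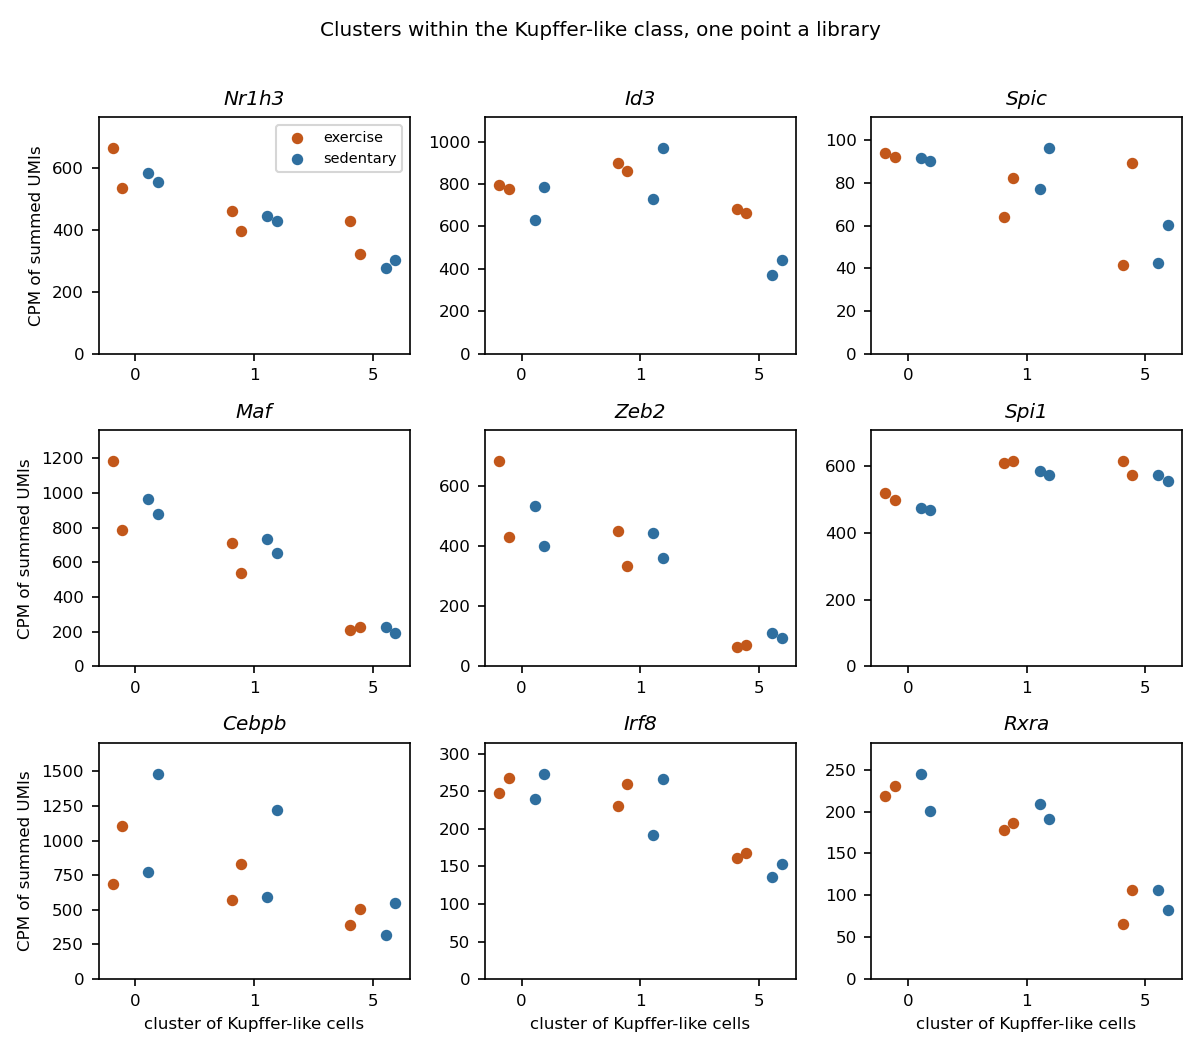
CPM of summed UMIs (linear axis from 0) of the 9 genes in the 3 clusters of Kupffer-like cells, 1 point a library, exercise left of sedentary. Nr1h3, Id3, Maf, Zeb2, Cebpb, Irf8 and Rxra were lowest in cluster 5 in all 4 libraries (for Zeb2 at most 112 CPM), whereas Spi1 in cluster 5 stayed near its level in cluster 1.

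The first comparison asked whether treadmill exercise changed these factors in Kupffer-like cells, the cells named in the series title. None of the 9 genes passed the test (edgeR quasi-likelihood test, Benjamini-Hochberg adjusted p under 0.05 over 9886 genes), where 0.344% of all genes tested did. At an unadjusted p under 0.05 there were 0 of the 9, where 5.4% of all genes had such a p, and DESeq2 called 0 of them. Of the log2 changes, 5 were positive and 4 negative, with a median of 0.03, beside a median of 0.00081 over all genes. The smallest adjusted p among the 9 was 0.97.

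Nr1h3 averaged 486 ± 66.5 CPM in exercise and 475 ± 20.9 CPM in sedentary Kupffer-like cells (SD, n = 2 each), and the libraries overlapped. Its log2 change was 0.03 ± 0.112 (SE; edgeR adjusted p = 0.99). Rxra averaged 192 ± 6.82 CPM in exercise and 199.8 ± 20.9 CPM in sedentary cells, a log2 change of -0.05 ± 0.108 (SE). Spi1 had 576 and 572 CPM in exercise and 535 and 537 CPM in sedentary cells, and it was the only member of the 9 whose groups did not overlap, where groups did not overlap for 34.1% of all genes tested. Its log2 change was 0.10 ± 0.0947 (SE; edgeR adjusted p = 0.972). Spic had a log2 change of -0.10 ± 0.138, Maf of -0.01 ± 0.153, Zeb2 of 0.12 ± 0.176, Id3 of 0.14 ± 0.149 and Irf8 of 0.07 ± 0.144 (SE), all with overlapping libraries. Cebpb averaged 756 ± 214 CPM in exercise and 948 ± 432 CPM in sedentary cells, a log2 change of -0.33 ± 0.314 (SE; edgeR adjusted p = 0.97). With 2 libraries a group the standard errors ran from 0.0947 for Spi1 to 0.314 for Cebpb on the log2 scale. When each library was left out in turn, the sign of the change turned at least once for every member except Spi1, which stayed between 0.07 and 0.14.

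**Figure D3:**
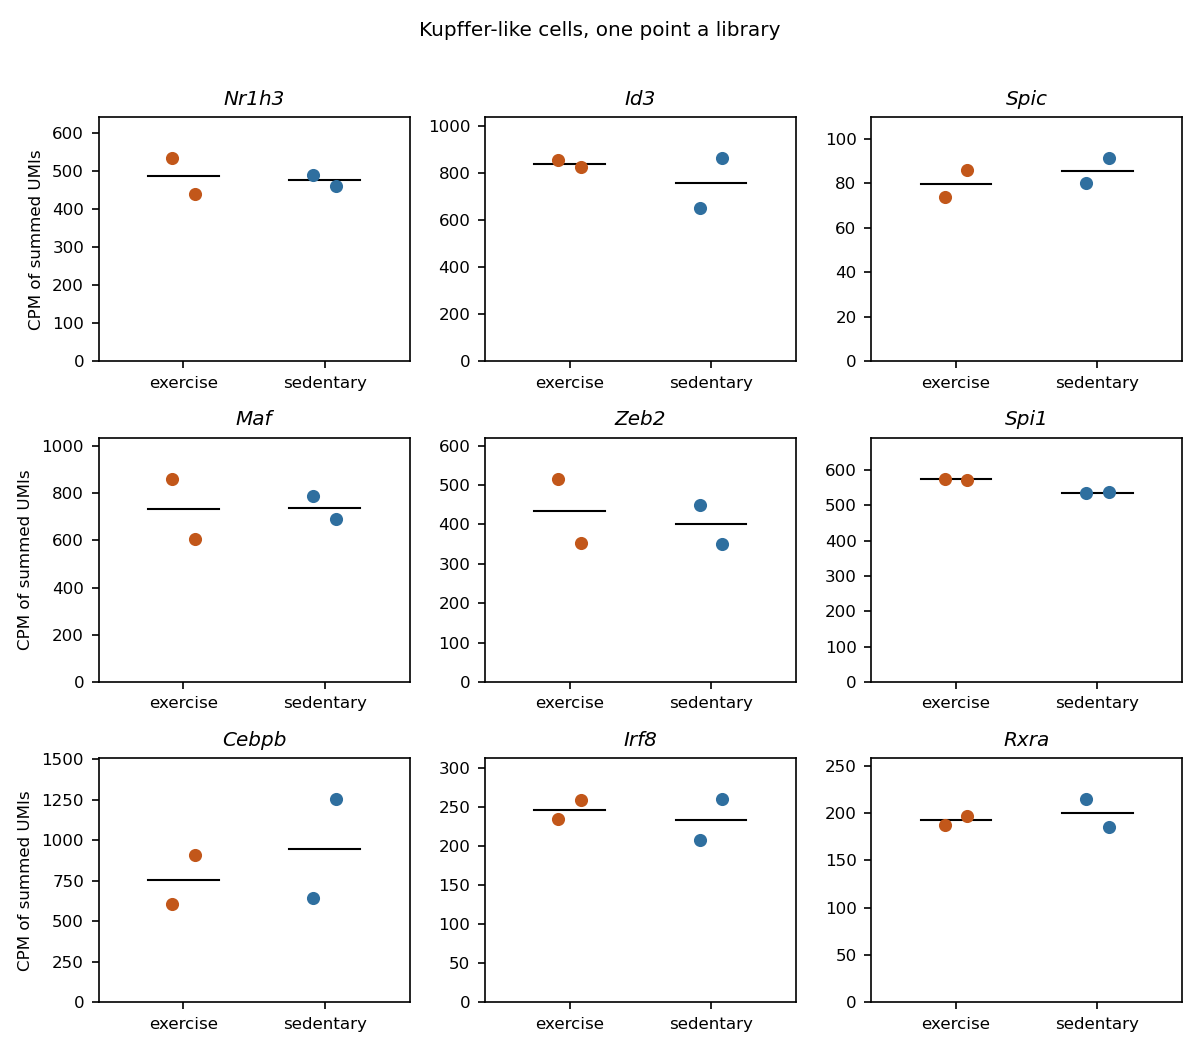
CPM of summed UMIs (linear axis from 0) of the 9 genes in Kupffer-like cells, 1 point a library, exercise left of sedentary, with a bar at each group's mean. Only the Spi1 points of the 2 groups are apart (576 and 572 against 535 and 537 CPM), and the Cebpb points are the most spread.

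In the other 11 classes, 70 of 99 combinations of member and class had enough counts for the test and 0 passed it, where 0.0852% of all gene tests in these classes did. DESeq2 called 0 of the 70. At an unadjusted p under 0.05 there were 6 of the 70, where 5.37% of all gene tests in these classes had such a p. Groups did not overlap in 15 of the 70, where they did not for 34.7% of all gene tests. Of the 6, 3 concerned Id3. Id3 had 194 and 209 CPM in exercise and 110.2 and 129 CPM in sedentary pDC-like cells, a log2 change of 0.72 ± 0.183 (SE; edgeR adjusted p = 0.487). In Tcf7 T-like cells Id3 had 179 and 88.8 CPM in exercise and 42.6 and 62.7 CPM in sedentary libraries, a log2 change of 1.26 ± 0.327 from 166 UMIs in all (SE; edgeR adjusted p = 0.497). It ran from 0.73 without exercise replicate 1 to 1.66 without exercise replicate 2. A fit without a library leaves 1 library in 1 group and cannot measure that group's spread, so only its size is given. The 12 Kupffer markers summed to 1312 and 1155 CPM in exercise and 909.9 and 875 CPM in sedentary Tcf7 T-like cells, none at 0, and to 933 and 1139 CPM in exercise and 742 and 945 CPM in sedentary pDC-like cells; their part in the Id3 values was not tested. In both classes the exercise libraries lay above the sedentary ones; groups did not overlap for 35% of all genes in pDC-like and 37.6% in Tcf7 T-like cells. In other macrophage-like cells, where groups did not overlap for 36.5% of genes, the order was opposite: Id3 had 1552 and 1229 CPM in exercise and 1922 and 2076 CPM in sedentary libraries, a log2 change of -0.54 ± 0.150 (SE; edgeR adjusted p = 0.308). Without exercise replicate 2 it was -0.35 and without exercise replicate 1 it was -0.70. Cebpb had a log2 change of -1.51 ± 0.469 in other macrophage-like cells (edgeR adjusted p = 0.405), with overlapping libraries. It ran from -2.61 without exercise replicate 2 to -0.46 without sedentary replicate 2. Cebpb had a log2 change of -0.79 ± 0.362 in NK or ILC-like cells (edgeR adjusted p = 0.883), also overlapping. Irf8 had 4129.6 and 3659.5 CPM in exercise and 4352 and 4217 CPM in sedentary pDC-like cells, a log2 change of -0.16 ± 0.0683 (SE; edgeR adjusted p = 0.937). It ran from -0.23 to -0.0797 when each library was left out. The exercise libraries lay below the sedentary ones, and differed more from each other than the nearest pair across the groups.

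**Figure D4:**
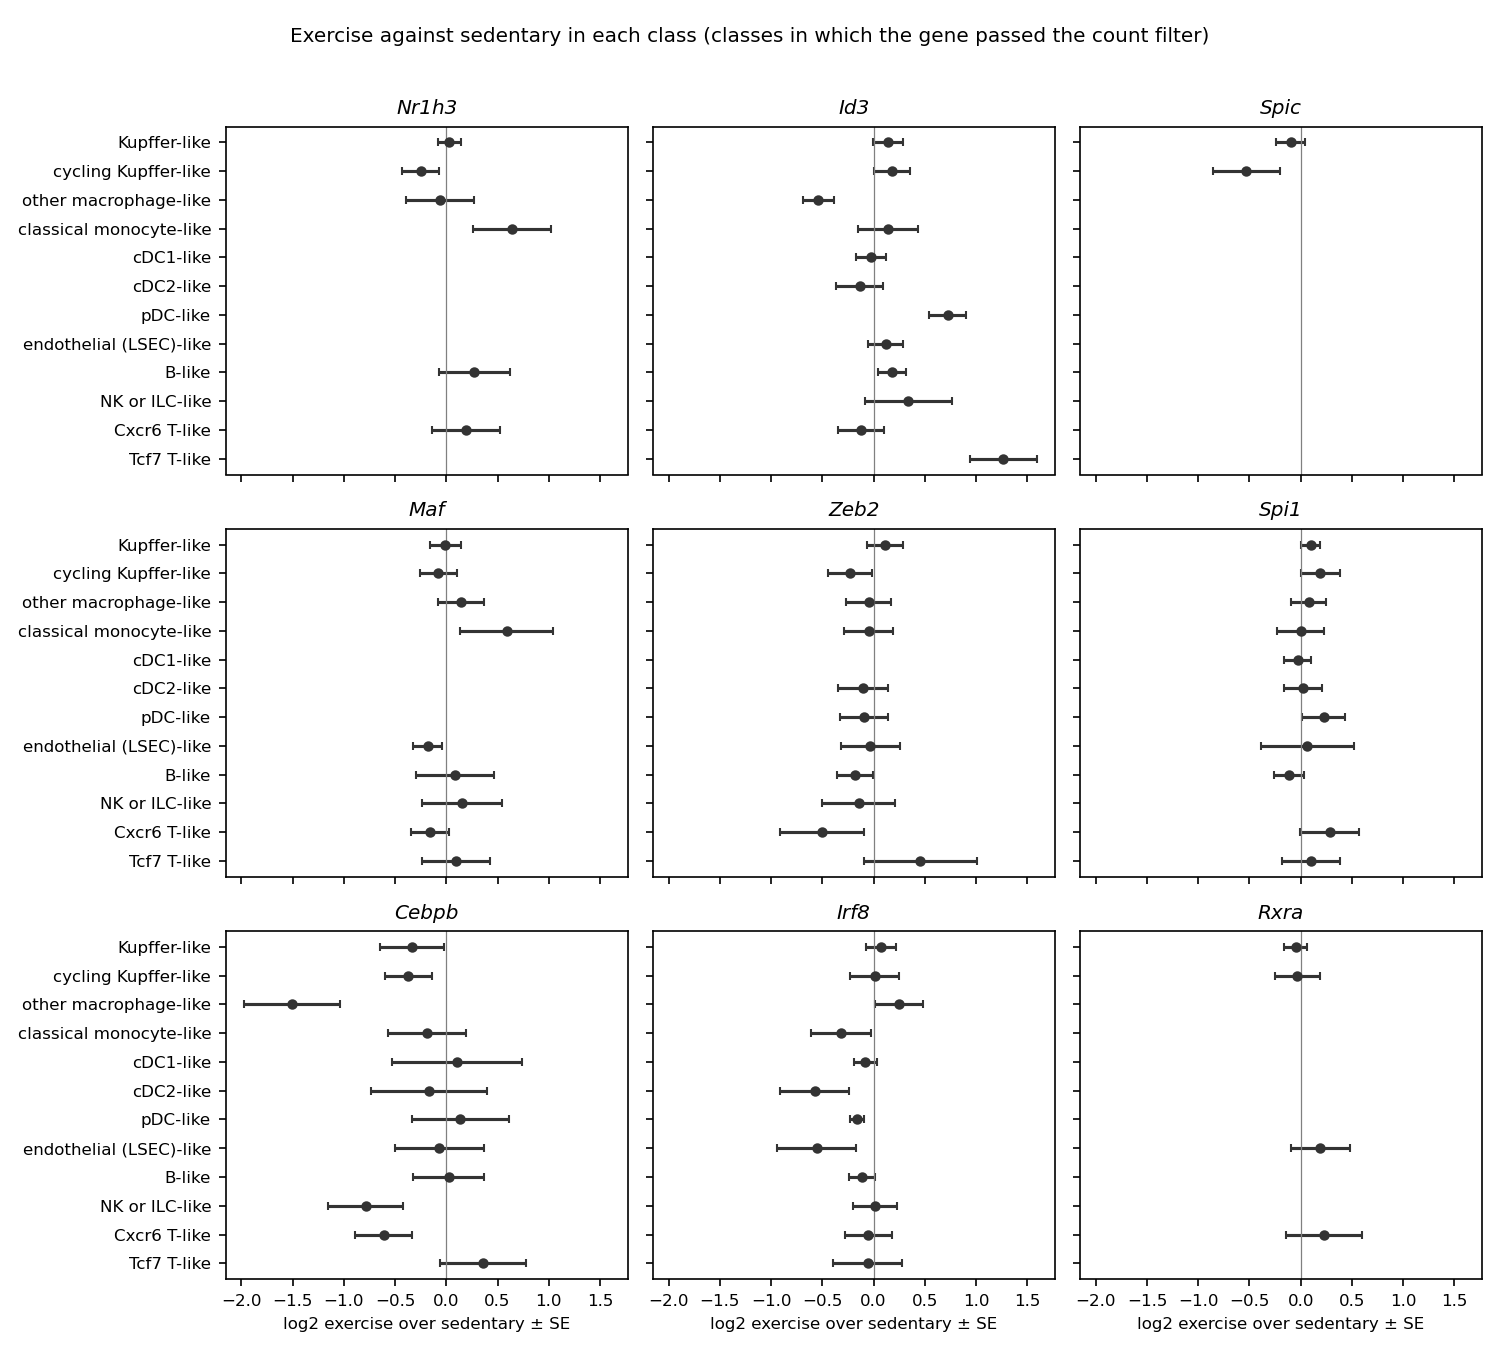
Log2 exercise over sedentary with its standard error (edgeR) for each gene in the classes where it had enough counts. The farthest points from 0 are Id3 in Tcf7 T-like cells (1.26) and Cebpb in other macrophage-like cells (-1.51), and no point passed the test after adjustment.

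Whether the exercise change of a gene differed between Kupffer-like cells and each of the 11 other classes was tested within libraries, in 99 tests of members. The count filter took both classes together, so a member could enter through its Kupffer-like counts alone. In the other class by itself, 70 of the 99 combinations had enough counts, both calls given here among them. Of the 99, 2 passed, where 0.096% of all gene tests over the 11 pairs did. Both were against other macrophage-like cells, where 0.206% of 9693 genes passed. The log2 exercise change of Cebpb was higher by 1.17 ± 0.193 in Kupffer-like than in other macrophage-like cells (SE; edgeR adjusted p = 3.41e-06). That of Id3 was higher by 0.71 ± 0.164 (SE; edgeR adjusted p = 0.0117). These standard errors come from the fitted test, which pools spread over genes. For Cebpb, Kupffer-like against other macrophage-like levels were 605 against 144 and 908 against 449 CPM in exercise. In sedentary libraries they were 643 against 439 and 1253 against 1310 CPM. In this ratio the 2 exercise libraries differed more from each other than the nearest pair across the groups. Id3 was lower in Kupffer-like than in other macrophage-like cells in all 4 libraries, with 853 and 824 against 1552 and 1229 CPM in exercise and 653 and 863 against 1922 and 2076 CPM in sedentary libraries. The size of the Cebpb difference depended on single libraries. It was 0.82 without exercise replicate 1, 0.75 without sedentary replicate 2 and 1.95 without exercise replicate 2. The Id3 difference stayed between 0.58 and 0.80 when each library was left out. Such a fit leaves 1 library in 1 group and cannot measure that group's spread, so it cannot decide whether a call holds. With coarser clusters Id3 was not called (edgeR adjusted p = 0.133). Other macrophage-like cells numbered 58 and 106 in exercise and 65 and 73 in sedentary libraries. The summed level of 22 immediate early and heat shock genes, which cell dissociation can induce, was 6298 and 6300.0 CPM in exercise and 6998 and 9996 CPM in sedentary Kupffer-like cells. In other macrophage-like cells it was 6887 and 7729.7 CPM in exercise and 10255 and 15829 CPM in sedentary libraries. Hepatocyte markers gave 0.138 and 0.302 UMIs a cell in exercise and 2.37 and 1.12 in sedentary other macrophage-like cells. The 12 Kupffer markers summed to 21516 and 23722 CPM in exercise and 17895 and 19171 CPM in sedentary other macrophage-like cells, none at 0; of the 8 that could be tested, 8 had a positive log2 change with a median of 0.86, and 0 passed (smallest edgeR adjusted p = 0.118). The part of these 3 lists in the Cebpb and Id3 differences was not tested. Among 7 further pairs of classes, chosen after the levels were seen because a member lay on opposite sides in them, Id3 passed in pDC-like against other macrophage-like cells (0.285% of genes passed) and in Tcf7 T-like against other macrophage-like cells (0.233% of genes passed).

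**Figure D5:**
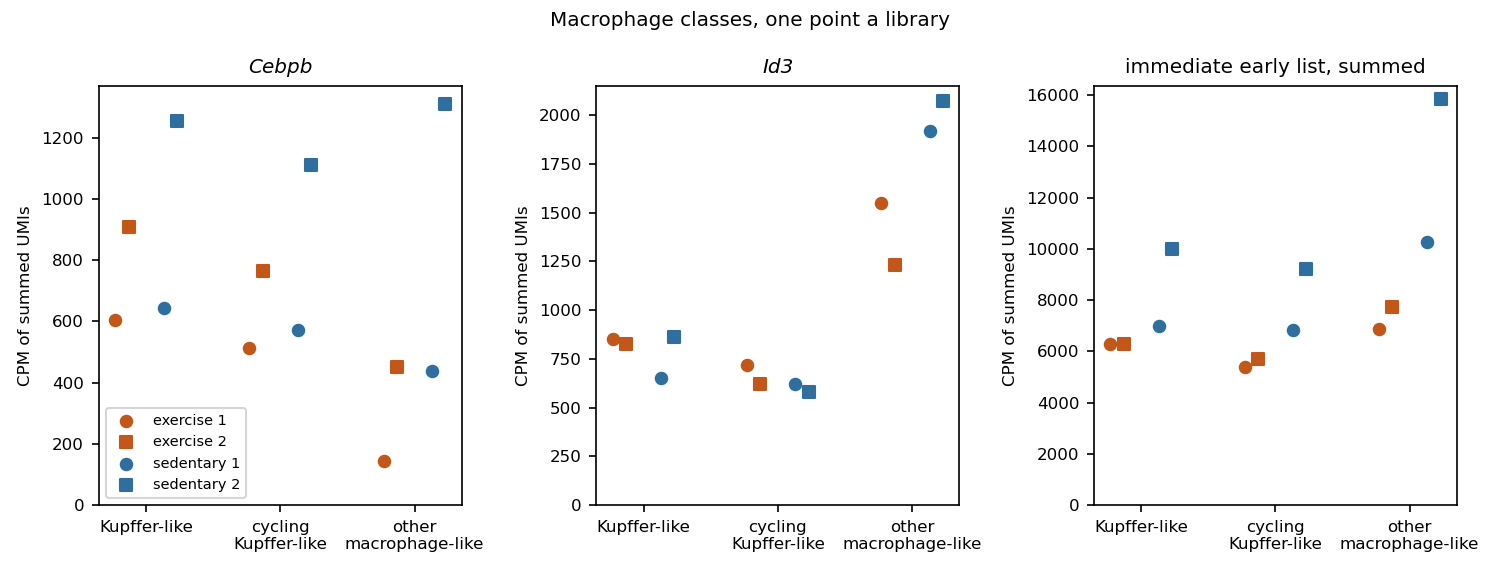
CPM of summed UMIs (linear axes from 0) of Cebpb, Id3 and the summed immediate early and heat shock list in 3 macrophage classes, 1 point a library (circle replicate 1, square replicate 2), exercise left of sedentary. In other macrophage-like cells Id3 was 1552 and 1229 CPM in exercise and 1922 and 2076 CPM in sedentary libraries, while the list and Cebpb were highest in sedentary replicate 2.

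The library itself went with the level of Cebpb across unrelated classes, and less so with that of Zeb2. Cebpb was highest in sedentary replicate 2 in all 12 classes, and in 10 of the 12 it was higher in replicate 2 than in replicate 1 within both groups. In endothelial (LSEC)-like cells, for example, Cebpb had 70.3 and 142 CPM in exercise and 50.1 and 173 CPM in sedentary libraries, and in cDC2-like cells 30.9 and 82.9 CPM in exercise and 28.7 and 116 CPM in sedentary libraries. Replicates 2 were also the libraries with sALT of 59 (exercise) and 56 (sedentary) U/L, where replicates 1 had 26 (exercise) and 33 (sedentary); the replicate number and this enzyme cannot be told apart with 4 libraries. Zeb2 was higher in replicate 1 than in replicate 2 within both groups in 7 of 12 classes. In pDC-like cells it had 312 and 209 CPM in exercise and 349 and 199 CPM in sedentary libraries, and in Kupffer-like cells 516 and 353 CPM in exercise and 451 and 351 CPM in sedentary libraries. For the other 7 members, neither order held in more than 5 of 12 classes, though Irf8 was highest in sedentary replicate 2 in 7 of 12. The classes of one library share its cells' handling, so these counts describe 4 libraries and carry no test. The share of all genes with such orders was not computed.

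Genes that work with the members were followed as lists in Kupffer-like cells. Of the tested genes in these lists 0 passed in either direction, where 0.344% of all 9886 genes tested did. Over all genes, 50.2% of log2 changes were positive and the median was 0.00081. The list of LXR target genes also held Nr1h2, which encodes the receptor LXRβ and had a log2 change of 0.06. Of its 15 tested genes, 10 had a positive and 5 a negative log2 change, with a median of 0.06, the value of Nr1h2 itself. The ubiquitin ligase gene Mylip had 80.4 and 101 CPM in exercise and 69.0 and 69.4 CPM in sedentary cells (log2 change 0.40 ± 0.142; edgeR adjusted p = 0.791), and the apolipoprotein gene Apoc1 had 6756 and 6745 CPM in exercise and 6161 and 6029 CPM in sedentary cells (0.15 ± 0.0945; edgeR adjusted p = 0.952). The list of nuclear receptor genes that pair with RXR also held the RXR gene Rxrb, and Nr1h2 again. Of its 9 tested genes 5 were positive, with a median of 0.01. Nr4a1 and Rara had log2 changes of -0.49 and 0.15. Of 15 PU.1 target genes of myeloid cells, 11 were positive with a median of 0.09, with log2 changes of 0.20 for Lyz2 and 0.18 for Tyrobp, while of 11 other ETS genes 9 were negative with a median of -0.15. Ets1, a lymphoid ETS factor, had 20.4 and 19.2 CPM in exercise and 26.2 and 26.7 CPM in sedentary cells (-0.42 ± 0.147; edgeR adjusted p = 0.774), and Erg had a log2 change of -0.68 at no more than 3.65 CPM.

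The list for the BMP and SMAD route to the ID genes also held the E-protein genes Tcf3, Tcf4 and Tcf12. Of its 15 tested genes, 9 were negative, with a median of -0.07. Id2, a relative of Id3, had 463 and 449 CPM in exercise and 509 and 762 CPM in sedentary cells (-0.49 ± 0.187; edgeR adjusted p = 0.866), and Smad7, an inhibitor of the route, had a log2 change of -0.39. The 11 heme and iron genes linked to Spic had a median of 0.01, with 6 positive, while the 4 erythroid markers that could be tested were all negative with a median of -2.97 (smallest edgeR adjusted p = 0.0555); the part of erythroid RNA in the heme genes and Spic was not tested. Hmox1, which breaks down heme, had 1454 and 1321 CPM in exercise and 1536 and 1868 CPM in sedentary cells (-0.30 ± 0.130; edgeR adjusted p = 0.921), and Blvrb had a log2 change of 0.22. Of 6 other MAF and BACH genes 5 were negative with a median of -0.21. Among them Mafg had a log2 change of -0.23. Of 7 other IRF genes 6 were positive with a median of 0.10, and Irf4 and Irf9 had log2 changes of 0.46 and 0.14. Of 4 other C/EBP genes 3 were negative with a median of -0.15, and Cebpz and Ddit3 had log2 changes of -0.21 and -0.26. Of 7 dendritic cell regulators 4 were positive with a median of 0.14, and Batf3 and Runx1 had log2 changes of 0.32 and -0.33. The 2 tested ZEB and SNAI genes, Zbtb18 and Zeb1, had log2 changes of -0.40 and -0.66. Of the 22 immediate early and heat shock genes, 18 were negative with a median of -0.44. Egr1 had 298 and 281 CPM in exercise and 454 and 517 CPM in sedentary Kupffer-like cells, a log2 change of -0.75 ± 0.115 that missed the threshold (edgeR adjusted p = 0.0535), and Fosb had one of -0.53 (edgeR adjusted p = 0.303). Of the 34 genes that did pass in Kupffer-like cells, 33 were lower in exercise, among them 8 of the 9 hepatocyte markers.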

How the data were processed

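Single-cell libraries were made with a 10x 3′ kit from CD45+ cells taken with magnetic beads after collagenase digestion, per the labels' protocols, whereas the series text speaks of flow sorting and nuclei. The authors deposited 1 matrix of raw UMI counts per library, aligned to a pre-mRNA reference, which can add intronic reads. Per the submitters' processing notes, Cell Ranger, Seurat 3.1 and builds mm10 and GRCm38 were used, with no Cell Ranger version named.

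The cell filter asked for 500 or more UMIs, 200 or more genes and no more than 20% of UMIs from mitochondrial genes, and 68 and 143 exercise and 130 and 119 sedentary barcodes were removed as doublets by a score against simulated doublets. Counts were scaled to 10000, log-transformed and centred per library, and 2000 variable genes without the 9 members gave 30 principal components, 20 neighbours and Leiden clusters at resolution 1 (leidenalg 0.10.2, Python 3.11.15). Centring was chosen after clusters without it were seen. Clusters were named from marker lists, so class names are rebuilt here. Sums of UMIs per class in each library were tested with edgeR 4.0.16 (quasi-likelihood, TMM, filterByExpr, Benjamini-Hochberg over all genes, R 4.3.3), with a term for the library where classes were compared. DESeq2 1.42.0, other filters, other clusterings, cells without hepatocyte UMIs, a replicate block and leaving out each library were alternatives. The script was tested on simulated data.

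All 9 members are named, with the 3 genes most like each and, per pathway list, the genes past the test or else the 2 with the smallest p. Some genes that this rule names are not reported here. The members and lists were chosen with earlier results of these data known.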

Additional observations from a re-analysis of the deposited data

Results flagged for a closer look

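The exercise change of Cebpb and of Id3 differed between Kupffer-like and other macrophage-like cells in a test of the difference itself. The log2 exercise change of Cebpb was higher by 1.17 in Kupffer-like cells (edgeR adjusted p = 3.41e-06), and that of Id3 was higher by 0.71 (edgeR adjusted p = 0.0117). In the ratio of the 2 classes for Cebpb, the exercise libraries differed more from each other than the nearest pair across the groups. The Cebpb difference ran from 0.75 to 1.95 when each library was left out, and the Id3 difference from 0.58 to 0.80. These fits leave 1 library in 1 group, so they cannot decide whether a call holds. With coarser clusters Id3 was not called.

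After the levels were seen, 7 further pairs of classes in which a member lay above the sedentary libraries in one class and below them in the other were tested, so these p values are not independent of the choice. Id3, the E-protein inhibitor, passed in 2 of the 7. Its log2 exercise change was higher by 1.29 ± 0.218 in pDC-like than in other macrophage-like cells (SE; edgeR adjusted p = 6.12e-06), where 0.285% of genes passed. It was higher by 1.74 ± 0.270 in Tcf7 T-like than in other macrophage-like cells (SE; edgeR adjusted p = 7.93e-06), where 0.233% of genes passed. The first difference ran from 1.01 to 1.499 when each library was left out. The second ran from 1.42 to 2.02 in these fits, each of which leaves 1 library in 1 group. Both share the other macrophage-like values with the Kupffer-like comparison of Id3.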

How the results depend on the processing

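No member was called in Kupffer-like cells under any of the alternatives (153 values, the lowest adjusted p 0.0976). The number of genes called there was 34, and it was 70 with DESeq2, 217 with no count filter, 193 with the replicate block, 0 in cells without a hepatocyte UMI, 53 in the cluster of higher mitochondrial share and 0 to 113 when each library was left out; the cause was not tested. Replicate numbers were shared by the groups, but no label says what equal numbers share. Over genes in Kupffer-like cells, replicate 1 minus replicate 2 correlated between the groups at r = 0.18. With 2 pairs this cannot decide whether equal numbers share a source. In the other classes 0 members were called, against 2 with no count filter, 3 with the replicate block (Cebpb in Cxcr6 T-like and other macrophage-like cells, Id3 in pDC-like cells) and 1 to 3 when each library was left out, which leaves an arm with 1 library assumed to vary like the rest. Over the 99 tests of a difference between classes, 2 members were called, against 3 with no count filter.

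In Kupffer-like cells the sign turned for Nr1h3 (-0.14) and Rxra (0.23) without hepatocyte UMIs, for Spic (0.0293), Maf (0.0878) and Rxra (0.0117) in the cluster of higher mitochondrial share, and for Nr1h3 (-0.0098) and Zeb2 (-0.0182) in that of lower share. Leaving out each library gave log2 changes of -0.089 to 0.15 for Nr1h3, -0.0701 to 0.40 for Id3, -0.23 to 0.0399 for Spic, -0.26 to 0.21 for Maf, -0.15 to 0.35 for Zeb2, -0.75 to 0.28 for Cebpb, -0.10 to 0.29 for Irf8 and -0.12 to 0.0291 for Rxra, and of -1.26 to 0.13 for Cebpb in NK or ILC-like cells. The class with the highest level was the same in 82 of 90 repeats.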
